A study of Caenorhabditis elegans with 2 samples.

Results

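Nuclear hormone receptors of *Caenorhabditis elegans* that carry an *nhr* symbol were examined in a ChIP-seq experiment on worms with EFL-1::GFP, a tagged E2F transcription factor, and 8 of 269 had a peak in the promoter window. The 269 genes were chosen by symbol, as every protein-coding gene of the Ensembl WBcel235 annotation whose name is *nhr* followed by a number, out of 19985 protein-coding genes. The 8 bound genes were selected on the peak lists themselves, as those with the summit of an optimal peak in a promoter window that reaches, for each transcript, from 1000 bp before its 5′ end to 200 bp past it. The optimal list is the authors' list of peaks thresholded on reproducibility. The family was taken up with the peak data already known, so its counts are a description and no test was made on them.

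The data came from chromatin immunoprecipitation followed by sequencing (ChIP-seq) in whole young adult worms of mixed sex, with 1 group of 2 biological replicates. The strain, YL445, was *unc119*(ed3)III and carried the insertion vrIs81, in which pPIE-1 drives EFL-1::GFP FLAG with the EFL-1 3′UTR, beside *unc-119* (+). The *pie-1* promoter is known for germline activity, and whether the fusion was present in other tissues was not examined. The antibody is labelled efl-1 while the experiment is described as against the eGFP fusion, so whether native EFL-1 was precipitated too is not settled, and EFL-1::GFP here names the experiment. A control library, worms without the transgene and read totals were not analysed here, so sequencing depth is unknown.

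Nuclear hormone receptors are transcription factors with a zinc finger DNA-binding domain and a domain that can bind small lipophilic ligands. In *C. elegans* the family is far larger than in insects or vertebrates, mostly through expansion of genes related to the vertebrate receptor HNF4, and many members lie in clusters on chromosome V. A small conserved set acts in moulting, developmental timing and reproduction, and several of the expanded members control fat and vitamin metabolism in the intestine. EFL-1 works with its partner DPL-1 and, in the DREAM complex, with the retinoblastoma homologue LIN-35, and E2F factors are best known for the genes of DNA replication and cell division.

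The sequences under 7 of the 8 *nhr* summits are shown first, because they differ in the E2F core, the sequence feature of E2F sites, which was complete at 2 of the 8 and at 30.7% of all 2498 optimal summits. As the core, either TTCCCGC or TTCGCGC or TTGCCGC or TTGGCGC was accepted, on either strand and no more than 50 bp from a summit. The 2 summits with a complete core, in capitals and read on the strand that carries it, were those of *nhr-48* (minus strand, ce11 chrX:15707252-15707280) and *nhr-56* (plus strand, chrV:2219942-2219970).
nhr-48: atgataaaactTTCGCGCcagcgtcagag
nhr-56: atcaaaaattgTTGGCGCttgaaaaattc
The middle of the core lay 27 bp from the summit of *nhr-48* and 37 bp from that of *nhr-56*, in the direction of increasing coordinates.

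The 2 strongest *nhr* peaks had no complete core, and 29 bases of the plus strand centred on each summit are given with the summit base in capitals, for *nhr-86* (chrV:2067620-2067648) and *nhr-15* (chrV:311897-311925).
nhr-86: agcctttcgtggtgGgaccctcacgccac
nhr-15: ctcgagagggctctCccattcaacgcgcc
A shorter form, the last 6 letters of each core, was searched as well: TCCCGC or TCGCGC or TGCCGC or TGGCGC, on both strands. It was chosen after the sequences at these summits were seen. Every complete core contains this form and counts as a match.

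The 6-letter form, in capitals, was found within 50 bp of 5 further summits, those of *nhr-86* (plus strand, chrV:2067638-2067666), *nhr-15* (minus strand, chrV:311910-311938), *nhr-142* (minus strand, chrV:5791081-5791109), *nhr-47* (minus strand, chrV:5505213-5505241) and *nhr-249* (plus strand, chrIV:6972743-6972771).
nhr-86: cctcacgccacgTGGCGCccattttcggt
nhr-15: ttgaacaaaaaaTGGCGCgttgaatggga
nhr-142: aaatgcgccagcTCCCGCaaaacacgcca
nhr-47: gttattggatgcTGGCGCgtttcgcgacc
nhr-249: tgggcaaaaaaaTCCCGCatttttcgtag
Each of these 5 summits had 1 match within 50 bp, which is the one in capitals. Within 100 bp, *nhr-142* and *nhr-249* had 2 each. The middle of the match lay 18 bp from the summit of *nhr-86*, 12 bp from that of *nhr-15* and 47 bp from that of *nhr-142*, toward higher coordinates. At *nhr-47* and *nhr-249* it lay at -7 and -8 bp, toward lower ones.

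With the 6-letter form, 7 of the 8 *nhr* summits held a match (87.5%), against 2 of 8 with the complete core. The exception was *nhr-85*. Over all 2498 optimal summits the shares were 48.2% and 30.7% in windows of the same length, and in 4996 flanking windows centred 500 bp to either side they were 8.77% and 4.10%. The *nhr* summit windows had a median of 49.5% G and C, from 36.6% at *nhr-15* to 55.4% at *nhr-47*, and those of all optimal summits a median of 43.6%. Matches to these G- and C-rich letters depend on base composition, and the part of that difference in the counts was not tested. A match is a description of letters and not evidence of a bound site.

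A hexamer like the cell cycle homology element that DREAM is known to bind, TTCGAA or TTTGAA on either strand, lay within 50 bp of 3 of the 8 *nhr* summits, those of *nhr-15*, *nhr-85* and *nhr-56*, and of 38.8% of all optimal summits. TTCGAA is its own reverse complement, and neither hexamer is contained in a core. In the flanking windows the share was 29.4%. The repeat GAGAGA was found within 50 bp of 0 of the 8, of 11.5% of all optimal summits and in 6.41% of flanking windows. Within 100 bp it was found at 1 of the 8, *nhr-47*, and at 20.6% of all optimal summits. With 8 summits these counts say little about the repeat.

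Few *nhr* genes were bound. The authors' optimal list placed a summit in the window of 8 of 269 *nhr* genes (2.97%), while 12.6% of all protein-coding genes were bound by the same rule (2513 of 19985). The 19985 include mitochondrial genes, of which some were bound, and 19973 of them are nuclear. The bound genes were *nhr-86*, *nhr-15*, *nhr-142*, *nhr-47*, *nhr-249*, *nhr-48*, *nhr-85* and *nhr-56*, in order of signal, and each had 1 optimal summit in its window. Of the other 261, 95 had a summit in the pooled relaxed list, which also holds background, and 166 had none there. In bulk worms, binding in few cells and weaker binding in many cannot be told apart.

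The low share was seen on chromosome V, where 167 of the 269 lie, and on most other chromosomes. On V, 5 of 167 *nhr* genes were bound (2.99%), against 8.27% of all 4994 protein-coding genes there. Chromosome IV had 1 of 33 *nhr* genes bound (3.03%) and 12.3% of all genes. Chromosome II had 0 of 15 and III 0 of 8, where 14.1% and 21.2% of all genes were bound. On the X, 1 of 23 was bound (4.35%), above the 2.64% of all genes there, and this share rests on *nhr-48* alone. Chromosome I also had 1 of 23, which was *nhr-85*, against 19.7% of all genes. Weighting the share of all genes on each chromosome by the number of *nhr* genes there gave 9.97%, between the 2.97% of the family and the 12.6% of all genes.

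**Figure D1:**
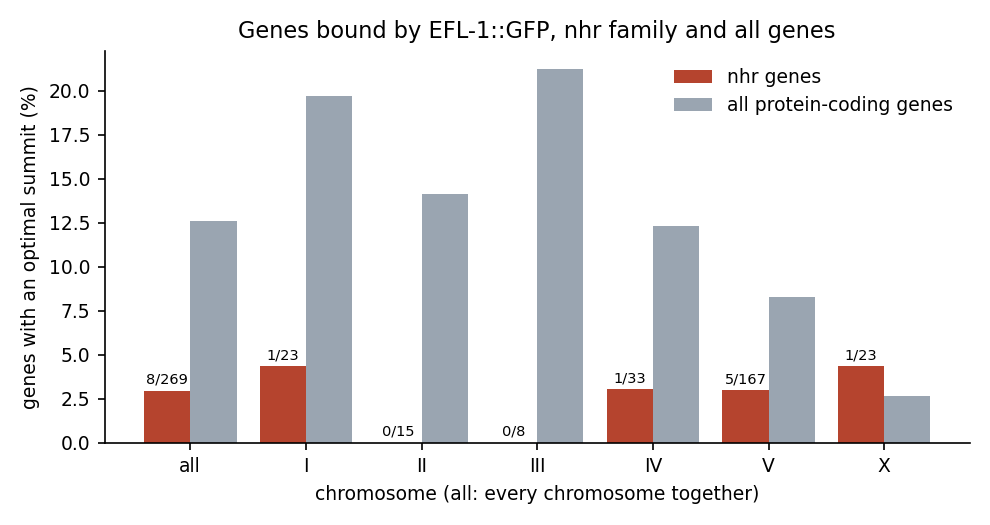
Percentage of genes with an optimal EFL-1::GFP summit in the promoter window, for *nhr* genes (red, with counts above the bars) and all protein-coding genes (grey), over all chromosomes and on each. The grey bar over all chromosomes includes mitochondrial genes. The *nhr* share is below that of all genes on every chromosome but X, where 1 of 23 *nhr* genes is bound.

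All 5 bound *nhr* genes of chromosome V lay in the leftmost of 3 equal parts of its length. That part held 78 *nhr* genes, of which 6.41% were bound, and 8.43% of its 1554 protein-coding genes were bound. The centre held 41 *nhr* genes and the right part 48, with 0 bound in each, while 9.40% and 6.88% of all genes there were bound. Most of the bound genes also had no other *nhr* gene next to them. Of 137 *nhr* genes with another *nhr* gene as the next protein-coding gene on either side, 1 was bound (0.730%), namely *nhr-56*. Of the 132 others 7 were bound (5.30%), and both shares were below the 12.6% of all genes. Among these 7, *nhr-86*, *nhr-15*, *nhr-142* and *nhr-47* shared their peak with a protein-coding gene of another family. Pooled relaxed summits lay at 44 of the 137 (32.1%) and at 59 of the 132 (44.7%), beside 44.7% of all genes.

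Summits of the relaxed lists were common at *nhr* genes and, over all chromosomes together, somewhat more common at all genes. A summit of the pooled relaxed list lay in the window of 103 of 269 *nhr* genes (38.3%), against 44.7% of all protein-coding genes. The order differed by chromosome, and these shares were not weighted for it. On V they were 34.1% of *nhr* genes and 36.4% of all genes. The *nhr* share was the higher on II (46.7% and 44.5%), IV (57.6% and 48.4%) and X (43.5% and 29.4%). It was the lower on I (30.4% and 57.6%) and III (37.5% and 57.5%). In replicate 1 the counts were 107 *nhr* genes (39.8%) and 45.3% of all genes, and in replicate 2 they were 87 *nhr* genes (32.3%) and 44.4%. Both replicates held a summit in the window, not necessarily in the same region, at 50 *nhr* genes (18.6%) and at 29.4% of all genes. No list held a summit at 116 *nhr* genes (43.1%), against 37.1% of all genes.

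The signal value of a region is the authors' own, with a scale that is not stated, and is compared only within a list. Among genes with a pooled summit, the median of the highest signal per gene was 10.8 for *nhr* genes and 14.9 for all genes. In replicate 1 these medians were 5.59 and 6.75, and in replicate 2 they were 8.10 and 11.0. Low medians were not particular to *nhr* genes. Homeobox genes of the *ceh* family, compared further below, had 10.4 in the pooled list, 5.59 in replicate 1 and 8.67 in replicate 2. At a pooled signal of at least 10, 20.8% of *nhr* genes and 32.6% of all genes had a summit. At 20 or more the shares were 5.20% and 17.9%, and at 56 or more they were 1.49% and 9.08%. At 80 or more the *nhr* share was 0.743%, which is *nhr-86* and *nhr-15*, beside 6.75% of all genes. At 160 or more the *nhr* share was still 0.743%, beside 3.55%. In percentage points the shares were farthest apart, among the values counted, at a signal of 14, with 10.4% and 23.6%. That value lies under the lowest signal of the optimal list, 34.9. The share of *ceh* genes was close to the *nhr* share at a signal of 10 (20.6%) and 14 (11.1%). It was above the *nhr* share at 20 (7.94%) and 56 (4.76%). No *nhr* gene reached 320, which 1.39% of all genes did.

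**Figure D2:**
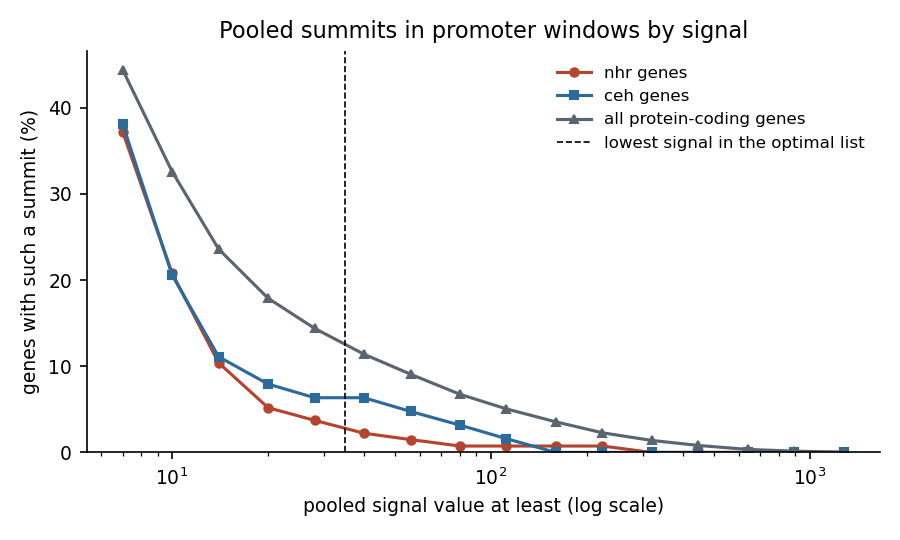
Percentage of genes with a pooled summit in the promoter window at or above each signal value (log axis), for *nhr* genes (circles), *ceh* genes (squares) and all protein-coding genes (triangles); the dashed line marks the lowest signal of the optimal list, 34.9. The *nhr* share starts at 37.2% beside 44.4% of all genes at a signal of 7 and is 2.23% beside 11.4% at a signal of 40.

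The 2 strongest *nhr* peaks lay at *nhr-86* and *nhr-15* on chromosome V. Both were high in each replicate, and both sat between divergent genes, far from the *nhr* 5′ end. *nhr-86* (WBGene00003676) encodes a receptor with a known part in intestinal innate immunity. Its peak lay in intergenic DNA at 2067518 to 2067771 and had a pooled signal of 243, rank 290 of 2498. The overlapping region had a signal of 62.3 in replicate 1 (rank 329 of 30000) and 183 in replicate 2 (rank 280). The summit lay at -784 bp from the 5′ end of *nhr-86*, a minus sign meaning upstream, and at -815 bp from that of *lbp-9*, a gene of the lipid-binding protein family on the opposite strand. Both 5′ ends were thus about equally far from the summit.

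*nhr-15* (WBGene00003614) had its peak in intergenic DNA at 311794 to 312021, with a pooled signal of 233 (rank 320). The signal was 39.4 in replicate 1 (rank 614) and 193 in replicate 2 (rank 266). The summit lay at -810 bp from *nhr-15* and at -346 bp from *phf-10*, which reads away on the other strand. The nearer 5′ end was thus that of *phf-10*, a PHD finger gene by its name.

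*nhr-142* (WBGene00018430) was the third *nhr* gene among the top regions of both replicates, meaning the 2498 regions of highest signal in each. Its peak, in intergenic DNA of chromosome V at 5790879 to 5791214, had a pooled signal of 73.5 (rank 1218), 29.2 in replicate 1 (rank 882) and 44.4 in replicate 2 (rank 1480). The summit lay at -494 bp from *nhr-142* and at -183 bp from the divergent gene *F44E7.9*, so here too the neighbour was nearer. The long noncoding RNA gene *linc-92* also had this summit in its window.

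The peak at *nhr-47* was high in replicate 2 and low in replicate 1. *nhr-47* (WBGene00003637) had a pooled signal of 60.1 (rank 1487) at 5505065 to 5505400 of chromosome V, in intergenic DNA. Replicate 2 had 57.0 (rank 1146) and replicate 1 had 4.99 (rank 18040 of 30000), which is among the weaker regions of that list. The summit lay at -20 bp, the closest of the 8 to an *nhr* 5′ end, and at -376 bp from *dnj-19*, a gene of the DnaJ family on the other strand. The windows of 2 noncoding RNA genes, *C24G6.10* and *C24G6.12*, held it as well.

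The 4 weakest bound members shared their peak with no other protein-coding gene. *nhr-249* (WBGene00022726, chromosome IV) had a pooled signal of 44.6 (rank 1961) at 6972597 to 6972932, with 6.78 in replicate 1 (rank 9054) and 39.4 in replicate 2 (rank 1653). Its summit lay in intergenic DNA at -238 bp, and a pseudogene on the other strand had it in its window at -326 bp. *nhr-48* (WBGene00003638, chromosome X), which encodes a receptor of the group that also holds DAF-12 and NHR-8, had a pooled signal of 43.7 (rank 2003) at 15707071 to 15707406. Replicate 1 had 10 (rank 3413) and replicate 2 had 32.7 (rank 1974). Its intergenic summit lay at -974 bp, near the upstream edge of the window, and the 5′ end of any other protein-coding gene was 10539 bp or more away.

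*nhr-85* and *nhr-56* were bound through internal 5′ ends, and their summits lay in their own introns. *nhr-85* (WBGene00003675, chromosome I) is a relative of the insect receptor E75 and acts with NHR-23 in developmental timing. Its peak at 13060290 to 13060625 had a pooled signal of 38.0 (rank 2295), 8.13 in replicate 1 (rank 5603) and 25.9 in replicate 2 (rank 2501). The summit was -833 bp from an internal 5′ end and 1664 bp downstream of the most upstream one. *nhr-56* (WBGene00003646, chromosome V) had a pooled signal of 36.1 (rank 2413) at 2219751 to 2220086, with 12.4 in replicate 1 (rank 2284) and 20.2 in replicate 2 (rank 3238). Its summit was -248 bp from an internal 5′ end and 915 bp downstream of the most upstream one. *nhr-56* is the single bound member next to another *nhr* gene, *nhr-128*, which was not bound.

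**Figure D3:**
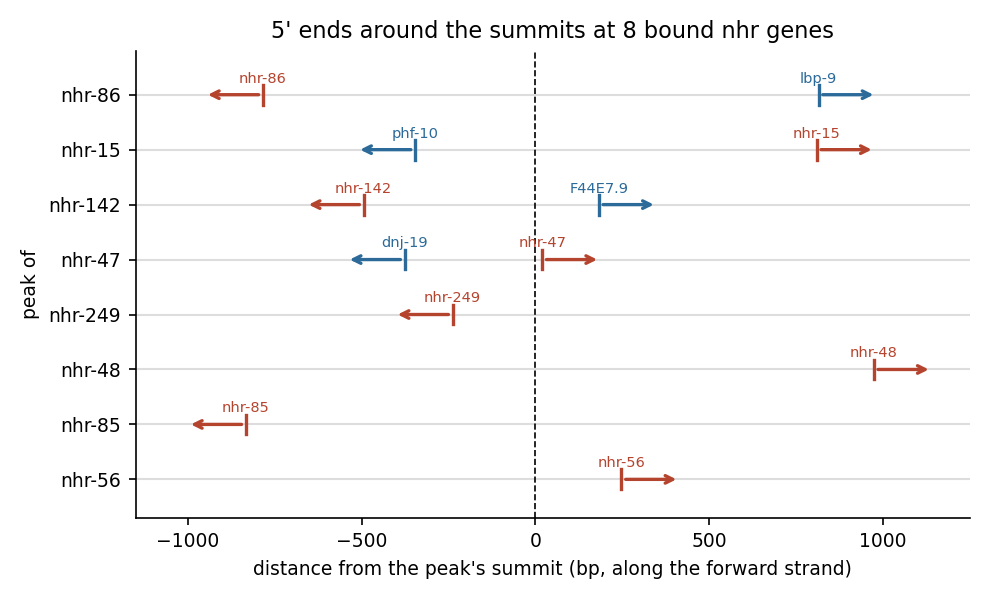
Annotated 5′ ends around the summit (dashed line) of each of the 8 *nhr* peaks, in bp along the forward strand, with red arrows for the *nhr* gene and blue arrows for a protein-coding neighbour whose window holds the same summit; arrows point in the direction of transcription. The summits at *nhr-86*, *nhr-15*, *nhr-142* and *nhr-47* lie between divergent genes, and those at the other 4 lie in no other protein-coding gene's window; for each gene only the 5′ end nearest to the summit is drawn.

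A protein-coding neighbour thus shared the peak of 4 of the 8 bound *nhr* genes, and of 55% of all 2513 bound genes. The *nhr* gene had the nearest 5′ end in 6 of 8 cases, against 71.1% of all bound genes. The summit was no more than 500 bp before the 5′ end and 200 bp past it in 4 of 8 cases, against 81.2% of all bound genes. The median distance was -639 bp for the 8 and -241 bp for all bound genes. The median signal was 52.4 for the 8 and 87.8 over all bound genes, although *nhr-86*, *nhr-15* and *nhr-142* were in the upper 50% of the optimal list by rank.

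The 3 strongest of the 8 peaks were the ones with top support in both replicates. All 8 peaks were overlapped by a region of each replicate's relaxed list, and also when a reciprocal overlap of 50% was required. Each relaxed list holds 30000 regions with background among them, and *nhr-47* counts here through a region at rank 18040 of replicate 1. The same share over all bound genes is not given, so this overlap says little about the 8. Those of *nhr-86*, *nhr-15* and *nhr-142*, 3 of 8 (37.5%), lay in the top regions of both replicates, as did the peaks of 78.7% of all bound genes. *nhr-47*, *nhr-249* and *nhr-48* were in the top regions of replicate 2 only, and *nhr-56* in those of replicate 1 only. *nhr-85* was in neither, at rank 2501 in replicate 2, just outside.

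The values on either side of the threshold were close. The lowest signal in the optimal list was 34.9, just below *nhr-56* at 36.1 and *nhr-85* at 38.0. Just outside were *nhr-255* at 31.7 (rank 2779 of the pooled list, -537 bp) and *nhr-65* at 31.5 (rank 2799, -292 bp). *nhr-255* had 16.2 in replicate 1 (rank 1632) and 14.1 in replicate 2 (rank 5031), and *nhr-65* had 4.45 (rank 22351) and 23.9 (rank 2720). Next came *nhr-1* at 23.8, *nhr-13*, which acts in fatty acid desaturation, at 22.4, and *nhr-61* at 21.7. The region of *nhr-61* lay in its own intron and was absent from replicate 1. None of these 5 unbound members' regions fell in the window of another protein-coding gene. Over all 95 members with relaxed summits only, the highest signal per gene ran from 6.96 to 31.7 with a median of 10.3. Of these, 51.6% were in the lower 50% of the pooled list by rank. The 95 leave out the 2498 highest regions and are counted by their highest summit, so the list's own 50% is no measure for them. A summit in each replicate, not necessarily in the same region, was found for 37 of the 95. The same shares over all genes with relaxed summits only are not given, so these values describe the 95 and set no trait of the family.

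**Figure D4:**
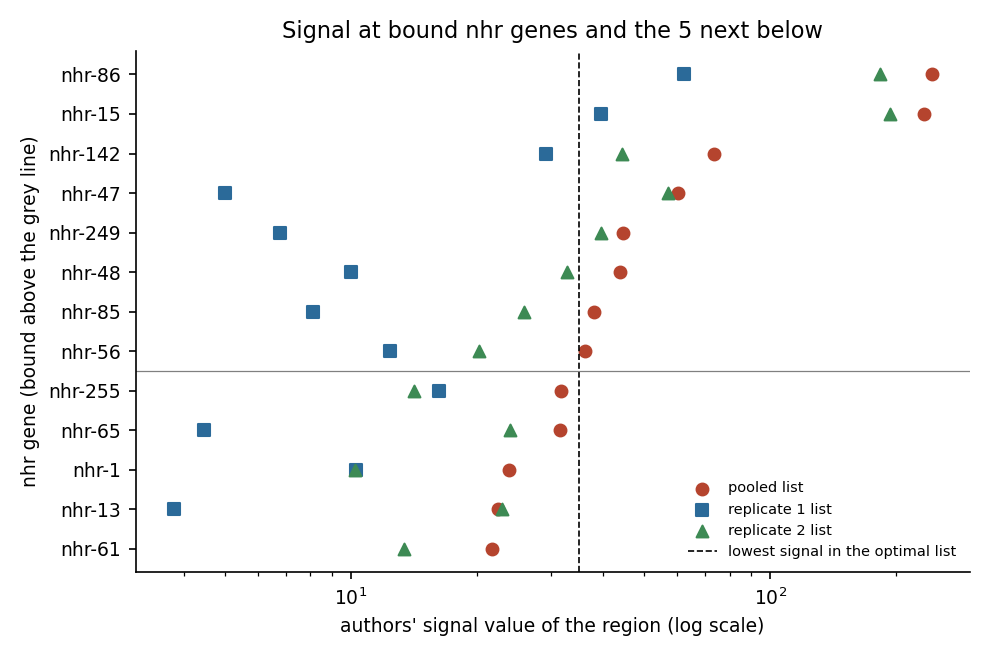
The authors' signal value (log axis) of the region at each of the 8 bound *nhr* genes (above the grey line) and the 5 next below, in the pooled list (circles), replicate 1 (squares) and replicate 2 (triangles); the dashed line is the lowest pooled signal of the optimal list, 34.9. *nhr-86* and *nhr-15* stand above the rest in all 3 lists, and *nhr-61* has no region in replicate 1.

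Peaks inside gene bodies but outside the window were found at 2 of the 261 unbound *nhr* genes (0.766%), against 1.36% of all 17472 unbound genes. The stronger was in an intron of *nhr-64* (WBGene00003654, chromosome I, 3105446 to 3105781), an HNF4-related gene. It had a pooled signal of 93.6 (rank 965), above 6 of the 8 promoter peaks, with 23.2 in replicate 1 (rank 1141) and 67.6 in replicate 2 (rank 956), both in the top regions. Its summit lay 1246 bp downstream of the nearest 5′ end of the gene. The other, in an intron of *nhr-59* (chromosome V, 2277322 to 2277657), had 40.5 (rank 2153), with 16.6 in replicate 1 (rank 1592) and 22.9 in replicate 2 (rank 2851), and its summit lay 283 bp downstream of the nearest 5′ end. Neither summit had an E2F core within 50 bp, and neither lay in the window of another protein-coding gene.

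Among 10 conserved receptors with insect or vertebrate counterparts, *nhr-48* and *nhr-85* were bound. With 12.6% of all genes bound, 2 of 10 says little about this group. *nhr-23*, the counterpart of the vertebrate receptors ROR and a regulator of moulting, had a pooled signal of 17.2, with 6.38 in replicate 1 and 9.73 in replicate 2. *nhr-41*, related to the insect receptor DHR78, had 17.3 in the pooled list. *nhr-8*, which acts in sterol homeostasis, *nhr-111* and *nhr-6*, which is needed for the spermatheca, had 9.83, 8.52 and 7.61. The pooled list held no summit for *nhr-25*, the counterpart of FTZ-F1, *nhr-67*, the counterpart of tailless, or *nhr-91*. Replicate 1 alone listed *nhr-25*, at 6.94.

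Of 10 metabolic receptors, 0 were bound in the promoter window, a count too small to tell from the 2.97% of the family or the 12.6% of all genes. *nhr-13* and *nhr-66* had the highest pooled signals, 22.4 and 21.3, and *nhr-64*, with its intronic peak, had 17.5 in its window. *nhr-49*, the main regulator of fatty acid metabolism among them, had a pooled signal of 13.8 and 16.8 in replicate 2, with no summit in replicate 1. *nhr-62*, which acts in dietary restriction, had 12.2, and *nhr-80*, which promotes oleic acid synthesis, had 8.32. *nhr-76* had 7.45. *nhr-10* and *nhr-68*, which together switch on the propionate shunt, and *nhr-114*, which acts in vitamin B12 physiology, had no pooled summit. In the replicates *nhr-68* was listed at 3.99 and 9.19, *nhr-10* at 6.54 in replicate 1 only, and *nhr-114* in neither.

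Of 5 nuclear receptor genes with other names, 0 were bound, beside 12.6% of all genes and 2.64% of those on the X, where 4 of the 5 lie. *daf-12*, which controls dauer entry and developmental age, had a pooled signal of 9.39, with 8.31 in replicate 1 and 6.04 in replicate 2. *fax-1*, *odr-7* and *unc-55*, which act in neurons, and *sex-1*, an X-linked signal of sex determination, had no summit in the pooled list or in either replicate. *unc-55* is the one not on the X.

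Partners of the receptors were too few to be set apart from the 12.6% of all genes that were bound. Of 4 coregulators, 0 were bound. *cbp-1*, which encodes a CBP/p300 acetyltransferase, had a pooled signal of 25.7 and was among the top regions of replicate 2 (28.7, rank 2245) but low in replicate 1 (4.93, rank 18521). *din-1*, a DAF-12 corepressor gene, had 13.3, and the N-CoR homologue *gei-8* and the Mediator subunit gene *mdt-15* had no pooled summit, though replicate 2 listed *mdt-15* at 9.73. Of 8 genes of the DAF-12 hormone pathway, 1 was bound, a share close to that of all genes. This was *strm-1*, which encodes a sterol methyltransferase, with a pooled signal of 72.1 at -714 bp, 24.1 in replicate 1 (rank 1080) and 45.9 in replicate 2 (rank 1433). Its peak was also that of *cic-1*, the cyclin C gene.

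The other members of that pathway stayed under the threshold. The P450 reductase gene *emb-8* had 21.1, the hormone-producing P450 gene *daf-9* 12.1, the sterol transport gene *ncr-1* 11.0 and *hsd-1* 9.39 in the pooled list. *daf-36*, *dhs-16* and *ncr-2* had no pooled summit, and replicate 1 listed *daf-36* at 9.72 and *ncr-2* at 4.18.

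The E2F core was somewhat less frequent in *nhr* promoter windows than in others. With the window of any 5′ end searched, as in the rule for binding, 79 of 269 *nhr* genes (29.4%) held a core, against 33.9% of 19973 nuclear protein-coding genes. Of the 79, 3 were bound (3.80%), namely *nhr-48*, *nhr-56* and *nhr-142*, and of the 190 without a core 5 were bound (2.63%). Over all genes 20.4% of those with a core and 8.48% of those without were bound. On chromosome V, 27.5% of *nhr* genes and 31.4% of all genes held a core by this search. Of all genes on V, 15.2% of those with a core and 5.08% of those without were bound. For *nhr* genes on V these shares were 4.35% and 2.48%. With the 1201 bp at the most upstream 5′ end alone, 63 *nhr* genes (23.4%) and 30.3% of all genes held a core (22.8% and 28.5% on V). Of these *nhr* genes, 1 of the 63 (1.59%) and 7 of the other 206 (3.40%) were bound. The direction between *nhr* genes with and without a core thus turned with the window. It turned through *nhr-56* and *nhr-142*, which held a core only in the wider search. *nhr-142* had no core within 100 bp of its summit. The peaks of *nhr-56* and *nhr-85* lie outside the narrower window. The search at any 5′ end was chosen after seeing the data, and it covers more sequence at genes with more 5′ ends, of which *nhr* genes had a mean of 1.70 and all genes 1.49. At the most upstream end, windows of *nhr* genes had a median of 33.9% G and C, and those of all genes 35.0%.

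Homeobox genes of the *ceh* family, another large set of transcription factors, lay between *nhr* genes and all genes in the share bound. Of the 63, 18 lie on the X, where 2.64% of all genes were bound, and the *ceh* share was not weighted by chromosome. Of 63 *ceh* genes, 4 were bound (6.35%), and 24 (38.1%) had a pooled relaxed summit, close to the *nhr* share of 38.3%. The bound genes were *ceh-99*, *ceh-92*, *ceh-39* and *ceh-100*, with pooled signals of 133, 109.8, 70.5 and 49, and all 4 peaks were in the top regions of both replicates, as were 3 of 8 at *nhr* genes. The difference between 4 of 63 and 8 of 269 was not tested, since both families were taken up with the peaks known.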

How the data were processed

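The authors deposited peak lists of 10 columns in the narrowPeak format, per the deposited description files, which derive them from the replicates' alignments and a control: relaxed lists, which mix peaks with background, for each replicate and for both pooled, and an optimal list thresholded by irreproducible discovery rate (IDR). Column 7 holds the authors' signal value per region and column 9 a −log10 q-value, which was not used for any call. Aligner, peak caller and IDR cut-off: not given in the sources used here. Each relaxed list holds 30000 regions. The optimal list equals the 2498 pooled regions of highest signal. Read totals were not used, so depth and counting precision are unknown. P-values are absent, since with 1 group there is nothing to test between samples.

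Lists in ce11 were read against Ensembl release 115 genes and the RefSeq WBcel235 sequence, whose chromosomes are long enough for every region. Lists in ce10 were left out. Positions count from 1. A summit was assigned to every gene whose window held it. Annotated 5′ ends in worms can be trans-splice sites or starts inside operons. The nearest-gene alternative gave each summit to the protein-coding gene with the nearest 5′ end. The assignment, overlap and motif steps were tested on simulated data and recovered every planted item. Python 3.11.15, numpy 2.4.6 and matplotlib 3.10.9 were used.

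The members and lists (37 names, all matched) were chosen with earlier results of these data known. Named genes were every bound member, the 5 unbound members with the highest pooled signal, the lists, and protein-coding genes sharing a bound member's peak. Other names (*nhr-59*, *nhr-109*, *nhr-128*, *ceh* and noncoding genes, *cic-1*) were added with their values in view.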

Additional observations from a re-analysis of the deposited data

How the results depend on the processing

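The count of 8 bound *nhr* genes was 6 to 10 with the 2000 bp window, the nearest gene only, the most upstream 5′ end only, each replicate's own top regions, and 2 settings chosen after seeing the data (peak edge, or summit anywhere in the gene body). Each replicate alone gave 6. Replicate 2's top regions held 6 of the 8 genes and no other. Those of replicate 1 held 4 of the 8 plus *nhr-109* and *nhr-255*. The 2000 bp window added *nhr-8*. The window of 500 bp left 4 *nhr* genes (1.49%, against 10.4% of all genes). The upper 50% of optimal peaks left 3 (1.12%, against 7.42% of all genes and 3.17% of *ceh* genes), and peaks among both replicates' top regions left the same 3 genes (1.12%). Any pooled relaxed summit gave 103 (38.3%, against 44.7% of all genes and 38.1% of *ceh* genes), and 20% of the 5 other receptor genes. With these settings the *nhr* share was below that of all genes each time. The E2F core count rose from 2 to 7 with its last 6 letters, a form chosen after seeing the data, and was 2 within 100 bp. Sharing a peak rose from 4 to 5 genes with any biotype. *nhr* genes with a core in the promoter window were bound in 1.59% of cases at the most upstream 5′ end and 3.80% at any 5′ end, those without in 3.40% and 2.63%. No paired analysis was possible because there is 1 group.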
